A study of Homo sapiens with 17 samples.

Results

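The genes described here encode the proteins of the cytosolic ribosome. They were chosen by name: every gene with a single platform symbol of the form RPL or RPS plus a number (with A, X or L allowed at the end), or RPLP0 to RPLP2, or RPSA, pseudogenes left out, with the brightest probe set standing for each gene. This gave 64 of the 17958 genes on the array, 39 of the large and 25 of the small subunit, measured by 119 probe sets. The pseudogene rule removed 0 probe sets. Whether a probe set also reads copies of its gene elsewhere in the genome was not tested. Of the 64, 60 encode core ribosomal proteins and 4 encode paralogues (RPL3L, RPL10L, RPL39L and RPS27L). Another 8 genes that match the pattern share a probe set with other symbols (RPL13A, RPL21, RPL23, RPL24, RPL32, RPL37, RPL39 and RPS12).

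The arrays came from A549 and H2122, human lung adenocarcinoma cell lines that lack functional LKB1, the tumour suppressor kinase that STK11 encodes. Cells carried a pBABE retrovirus with wild-type LKB1, with the kinase-dead mutant K78I, or with no insert, and all had been kept for 2 weeks in puromycin at 1 µg/mL. In A549 there were 3 arrays each for LKB1, K78I and pBABE, and in H2122 there were 3 for LKB1, 3 for K78I and 2 for pBABE. Every group is thus a puromycin-selected pool whose LKB1, where present, is driven by the retroviral vector. No label states that replicates were separate cultures, so p-values reflect array-to-array spread alone, which may be technical. Values are log2 levels; a difference of 1 is a doubling, and "both controls" is the mean of K78I and pBABE with equal weight. A gene is said to have risen or fallen if limma's moderated test gave a Benjamini-Hochberg adjusted p under 0.05 over all 17958 genes.

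Each ribosome holds 1 small subunit, which reads the message, and 1 large subunit, which forms the peptide bond, and their proteins are made in balanced amounts. Messages for these proteins begin with a 5′ terminal oligopyrimidine (TOP) tract, a C followed by a run of C and T, through which mTOR complex 1 promotes their translation. LKB1 activates the energy sensor AMPK, which restrains mTOR complex 1. TOP control is known for acting on translation more than on message level, and the arrays measure message level only.

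The transcription starts of the 10 genes that fell in H2122 are shown with that of RPS27L, the gene that rose in A549, because the TOP tract is the sequence this gene family is known for. Each line gives 15 bases before and 15 from the RefSeq start on GRCh38.p14, 5′ to 3′ on the gene's strand. Capitals mark the unbroken run of C and T that begins with a C at the start. RPL13 has 3 listed starts, and the one with the longest such run is shown.
RPL13, chr16:89560667-89560696 (plus strand): ttgcggggccgcttcCTTTCCgctcggctg
RPS23, chr5:82278340-82278369 (minus strand): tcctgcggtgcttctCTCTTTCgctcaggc
RPL36, chr19:5690280-5690309 (plus strand): ccgcgcggcgccagcCCTTCCgccacggcc
RPS4X, chrX:72277234-72277263 (minus strand): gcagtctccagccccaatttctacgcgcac
RPL12, chr9:127451392-127451421 (minus strand): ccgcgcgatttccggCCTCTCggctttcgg
RPS9, chr19:54200843-54200872 (plus strand): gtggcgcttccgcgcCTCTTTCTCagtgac
RPS14, chr5:150449725-150449754 (minus strand): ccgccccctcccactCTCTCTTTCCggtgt
RPS16, chr19:39435935-39435964 (minus strand): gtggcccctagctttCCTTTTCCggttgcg
RPL37A, chr2:216498829-216498858 (plus strand): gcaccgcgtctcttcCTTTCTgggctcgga
RPS6, chr9:19380222-19380251 (minus strand): aagcggaagttggccCTCTTTTCCgtggcg
RPS27L, chr15:63157463-63157492 (minus strand): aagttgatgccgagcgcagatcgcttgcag

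Of the 64 genes, 54 had an entry in the RefSeq promoter table. A TOP start was taken as a C at the start followed by C or T at each of the next 4 bases, at any listed start. A run that lies a few bases away from the listed start was not counted, as in RPL17 and RPL10A. A TOP start was found in 38 of these 54 (70.4%), against 5.14% of the 27305 genes in the table. Among the genes printed above, 9 of the 10 that fell in H2122 have one; RPS4X and RPS27L do not at the listed start. The median run was 8 bases and the longest was 16, in RPL7A. The core motif CTTTCC, searched on both strands over 250 bases before to 50 after the start, occurred in 24 of the 54 (44.4%), against 30.2% of all genes in the table. The longer CTCTTTCC, each copy of which also contains CTTTCC, occurred in 8 (14.8%), against 3.70% of all genes in the table. Both motifs can lie within the TOP tract, as in RPL18 and RPS14, so these counts are not separate from the count of TOP starts.

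STK11 was read first, since it checks the labels. In H2122 it stood at 11.20, 11.35 and 11.26 on the LKB1 arrays, against 11.27, 11.31 and 11.26 with K78I and 6.33 and 6.22 with pBABE. In A549 it stood at 9.42, 10.23 and 9.62 with LKB1, against 10.54, 7.14 and 10.42 on the arrays labelled K78I and 6.88, 7.38 and 10.52 on those labelled pBABE. The second K78I and the third pBABE array of A549 thus go against their labels. If these 2 controls were swapped with each other, the mean of both A549 controls would hold the same 6 arrays. STK11 cannot tell wild-type LKB1 from K78I, so it does not show which insert pBABE replicate 3 carried. In H2122 the source name of 3 arrays (LKB1 replicate 3, K78I replicate 3 and pBABE replicate 2) names another construct than the title, and the titles were followed. STK11 goes with the title for K78I replicate 3 and pBABE replicate 2, and cannot decide for LKB1 replicate 3, whose source name is K78I. Against the line mean, a list of 33 cell cycle genes lay at −1.37 on H2122 pBABE replicate 2, −0.89 on A549 K78I replicate 2 and −0.36 on A549 pBABE replicate 1. Of 8 epithelial markers 7 had a mean level over 7, and of 14 markers of blood, endothelial and fibroblast cells 2 did (CD68 and ACTA2).

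In H2122 the ribosomal protein genes lay slightly but very evenly lower with LKB1. Of the 64, 61 had a difference below 0 (all genes 57.7%), and the median difference was −0.21, which is 13.3% less message; the median over all genes was −0.04. Of the 64 genes 10 fell and 0 rose; over all genes 7.28% changed, 2.29% of them downward and 4.99% upward as shares of all genes. The share of ribosomal protein genes that fell was 15.6%. For 40 of the 64 (62.5%) every LKB1 array lay below every control array, against 8.82% of all genes. A one-sided count also arose between the A549 control groups, where 57 of the 64 were below 0 for K78I minus pBABE (all genes 54.6%). In RNA of a whole culture, fewer expressing cells and less RNA per cell cannot be told apart.

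**Figure D1:**
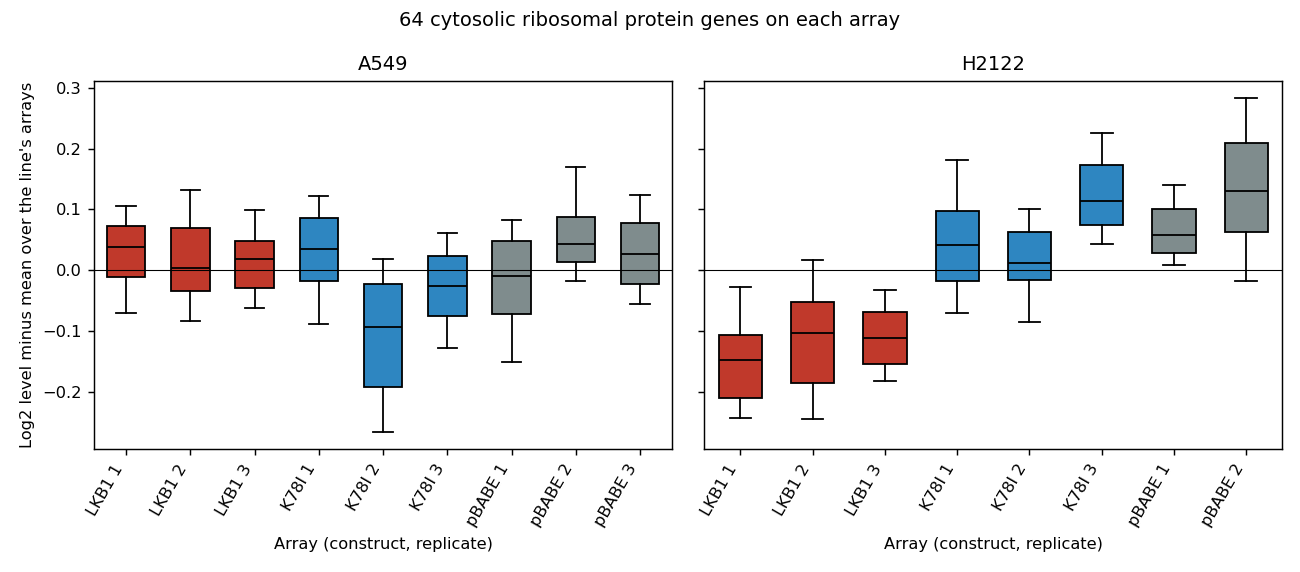
Deviation of the 64 ribosomal protein genes on each array from each gene's mean over the arrays of its line (log2), A549 left and H2122 right. Boxes are quartiles with the median as a line, whiskers run from percentile 10 to percentile 90 of the genes. All 3 H2122 LKB1 arrays lie below 0 (means −0.15, −0.11 and −0.11) and all 5 H2122 controls above, while in A549 the LKB1 arrays lie among the controls.

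The shift was present on each array. Averaged over the 64 genes, the H2122 LKB1 arrays lay at −0.15, −0.11 and −0.11 against the line mean, while the K78I arrays lay at 0.05, 0.01 and 0.12 and the pBABE arrays at 0.06 and 0.13. Of the 64 genes, 59, 54 and 61 lay below their line mean on the LKB1 arrays, against 22, 27 and 5 with K78I and 6 and 10 with pBABE. No control array reached the level of an LKB1 array. The array with conflicting labels and an uninformative STK11 level, LKB1 replicate 3, lay with the other LKB1 arrays. That cannot settle its label, since these are the values being compared.

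RPL13, a large subunit protein, showed the lowest of the 64 differences in H2122. Its level was 9.18, 9.44 and 9.43 on the H2122 LKB1 arrays, against 9.85, 9.80 and 9.78 with K78I and 9.70 and 10.40 with pBABE. All 3 LKB1 arrays lay below all 5 controls, although pBABE replicate 2 stood well above the rest. The difference was −0.58 ± 0.13 (SE, limma adjusted p = 0.0121), a level 33.2% lower. Leaving out LKB1 replicate 1 ended the call (adjusted p = 0.0824).

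RPS23, a small subunit protein at the decoding centre, stood at 9.26, 9.03 and 9.20 with LKB1, against 9.51, 9.53 and 9.62 with K78I and 9.53 and 9.53 with pBABE. The groups did not overlap and the control arrays lay close together. It fell by 0.38 ± 0.10 (SE, limma adjusted p = 0.0262), a call that was lost without LKB1 replicate 2, LKB1 replicate 3, K78I replicate 3 or pBABE replicate 2 (adjusted p between 0.0505 and 0.148).

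RPL36, a large subunit protein, stood at 8.50, 8.45 and 8.55 with LKB1, against 8.999, 8.81 and 8.82 with K78I and 8.80 and 8.92 with pBABE, and fell by 0.37 ± 0.09 (SE, limma adjusted p = 0.0211). RPS4X, the X-linked gene for a small subunit protein, stood at 11.08, 11.03 and 10.98 with LKB1, against 11.37, 11.39 and 11.32 with K78I and 11.29 and 11.38 with pBABE. Within each group the RPS4X arrays lay within 0.10 of each other, and it fell by 0.32 ± 0.08 (SE, limma adjusted p = 0.0323). RPS6, the small subunit protein phosphorylated by S6 kinase downstream of mTOR complex 1, stood at 11.71, 11.67 and 11.74 with LKB1, against 11.92, 12.05 and 11.95 with K78I and 11.90 and 12.06 with pBABE. Its groups did not overlap, but the change was small, −0.27 ± 0.08 (SE, limma adjusted p = 0.0483).

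The other 5 genes that fell did so by like amounts. RPL12, which sits at the base of the ribosomal stalk, differed by −0.31, RPS9 by −0.31, RPS16 by −0.30, RPS14 by −0.29 and RPL37A by −0.29 (limma adjusted p between 0.0368 and 0.0476). For each of them every LKB1 array lay below every control array. Of the genes next to the threshold, RPS6, just inside, had an adjusted p of 0.0483 and RPS18, just outside, one of 0.0502, with a larger difference of −0.31. RPL29 (−0.36) and RPS24 (−0.32) were also among the 5 lowest differences and did not pass (limma adjusted p = 0.376 and 0.285). At an unadjusted p under 0.05, 30 of the 64 genes were lower and 0 higher, against 9.61% and 9.67% of all genes.

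**Figure D2:**
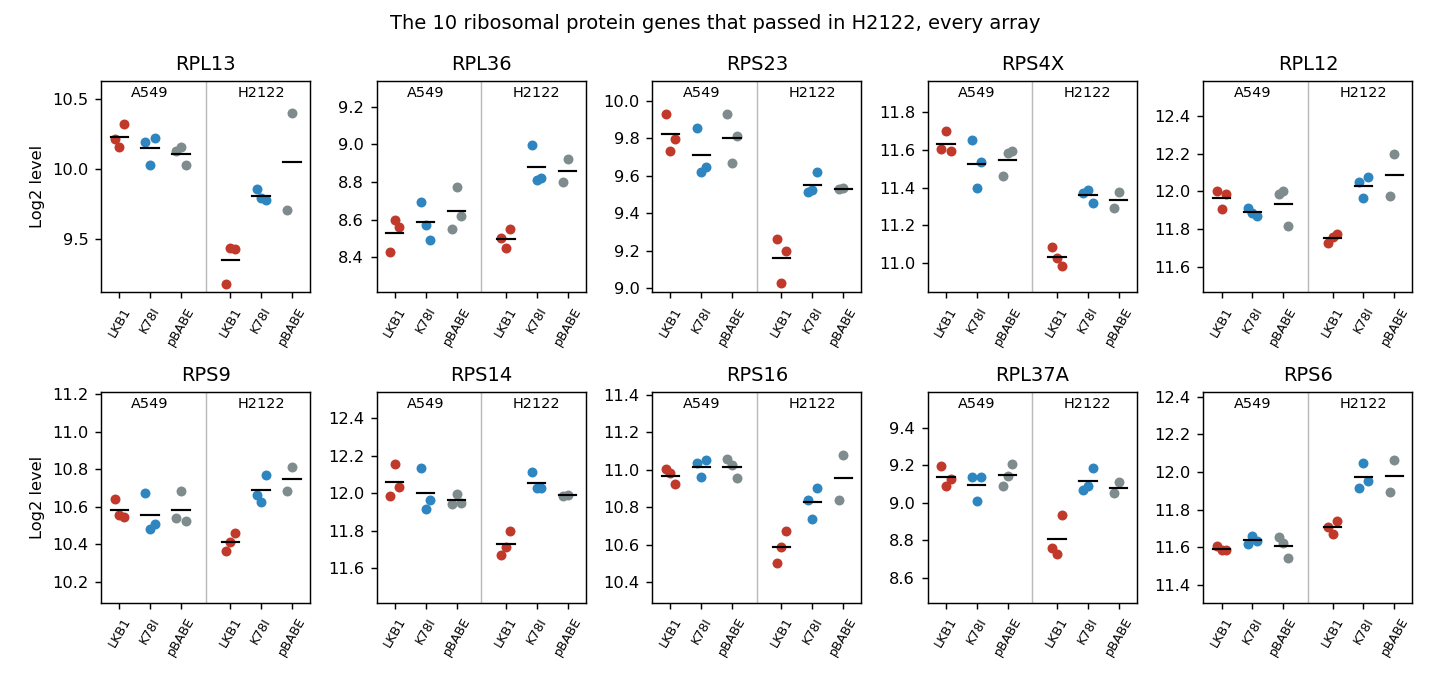
Log2 level of the 10 ribosomal protein genes that fell in H2122, on every array of A549 (left in each panel) and H2122 (right). Points are arrays, black bars group means, and each panel spans at least 1 log2 unit. In H2122 the LKB1 points lie below all control points in each panel, and in A549 they overlap them.

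The exceptions were few. RPL41, which encodes the smallest ribosomal protein, differed by 0.02 in H2122 (95% interval −0.15 to 0.19), RPS26 by −0.04 and RPL10 by −0.05. The stalk proteins, which bind elongation factors, differed by −0.11 (RPLP1) and −0.15 (RPLP2), and neither passed. The remaining 2 genes above 0 were paralogues, RPL39L (0.17) and RPS27L (0.13).

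Both subunits took part. The 24 core genes of the small subunit had a median difference of −0.26, all 24 below 0, and 6 fell. The 36 core genes of the large subunit had a median of −0.20, 35 of them below 0, and 4 fell. Split by the brightness of the probe set, the dimmest 20 core genes had a median of −0.26, the middle 20 one of −0.21 and the brightest 20 one of −0.13. Brightness on the array is not message abundance, and the part of signal compression in bright probe sets was not tested. The 1052 other genes with a mean level of 10 or more had a median of −0.04.

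Probe sets of one gene mostly gave the same direction. Of all 119 probe sets 113 were below 0 in H2122, with a median of −0.21, and 15 fell when each of 19181 single-symbol probe sets was tested, of which 2.24% fell and 4.89% rose. Among the 31 genes with several probe sets, all probe sets had the same sign in 29, the other 2 being RPL4 and RPL41. RPL13 had 3 probe sets, at −0.58, −0.55 and −0.06, the last of them the dimmest, and their mean gave −0.40 (limma adjusted p = 0.0982). RPS9 had 2, at −0.31 and −0.57. RPL12 had 4, at −0.31, −0.29, −0.29 and −0.37, from brightest to dimmest. Only the brightest passed (limma adjusted p = 0.0376, against 0.0512, 0.0586 and 0.270). For RPL41, 2 probe sets carried identical values, and for RPS18 all 3 did, so these are not separate measurements. Whether the other probe sets of a gene are separate measurements was not tested.

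Against each control alone the shift had like size and few single genes passed. Against K78I the median was −0.19 with 61 of 64 below 0 (all genes 54.1%), and 0 genes passed, against 3.89% of all genes; at an unadjusted p under 0.05, 20 were lower and 0 higher, beside 7.77% and 8.15% of all genes. Of all genes 0.908% fell and 2.98% rose. Against pBABE the median was −0.24 with 62 of 64 below 0 (all genes 58.8%), and RPL13 alone fell (−0.70 ± 0.16 SE, limma adjusted p = 0.0167), beside 1.6% of all genes that fell and 5.77% that changed. Against pBABE 0 genes passed without LKB1 replicate 1 or pBABE replicate 2, and 5 passed without pBABE replicate 1. At an unadjusted p under 0.05, 30 were lower and 0 higher, beside 8.36% and 8.98% of all genes. K78I and pBABE, set against each other, differed by a median of −0.04 (K78I minus pBABE, 42 of 64 below 0, all genes 53.6%) with 0 ribosomal protein genes passing and 0 at an unadjusted p under 0.05; over all genes 0% passed, and 3.71% were higher and 3.31% lower at an unadjusted p under 0.05.

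The H2122 count of single genes rests on few arrays. It was 1 without LKB1 replicate 1, LKB1 replicate 2 or pBABE replicate 2, 2 without LKB1 replicate 3 or K78I replicate 3, 3 without K78I replicate 1 and 5 without K78I replicate 2. It was also 4 to 6 when A549 LKB1 replicates 1, 2 or 3 or A549 pBABE replicates 1, 2 or 3 were left out, since all groups share 1 estimate of spread. Without the 3 arrays of conflicting label 0 genes passed (limma), but 60 of 64 were below 0 with a median of −0.17, and in 44 every LKB1 array lay below every control (68.8%, against 21.1% of all genes on these 5 arrays). With the source names taken as groups the median was −0.07 and 0 genes passed; STK11 then differed by −0.45. Without pBABE replicate 2, the array with the low cell cycle genes, 61 of 64 were still below 0, and the median was −0.17.

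In A549 the 60 core genes differed by at most 0.16 in size on the log2 scale, and none of them passed. The median difference was 0.02, against −0.02 over all genes, and 19 of the 64 genes were below 0, against 54.3% of all genes. The sign of this median turns with the scaling: with each array centred on its median it was −0.047 with 48 of 64 below 0, beside −0.09 and 66.5% for all genes. The same centring gave −0.24 and 62 of 64 below 0 in H2122, beside −0.07 and 64.6% for all genes. Among the core genes the lowest adjusted p was 0.382 (limma), and 0 had an unadjusted p under 0.05, beside 11.7% (higher) and 10.1% (lower) of all genes. RPS27L, a paralogue of RPS27 that is induced by p53, was the 1 gene of the 64 that rose, against 5.49% of all genes. Over all genes 8.44% changed in A549, 2.95% of all genes downward, and with centred arrays 4.31% were higher and 4% lower.

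RPL13 stood at 10.22, 10.16 and 10.32 on the A549 LKB1 arrays, against 10.19, 10.03 and 10.22 with K78I and 10.13, 10.16 and 10.03 with pBABE. The groups overlapped, and the difference was 0.11, with a 95% interval from −0.16 to 0.37. RPS23 stood at 9.93, 9.73 and 9.80 with LKB1, against 9.86, 9.62 and 9.65 with K78I and 9.93, 9.67 and 9.81 with pBABE. Its difference was 0.06 (95% interval −0.13 to 0.26), and the groups overlapped as well.

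RPS27L stood at 8.65, 8.54 and 8.48 with LKB1 in A549, against 8.23, 7.74 and 8.19 with K78I and 8.13, 8.07 and 8.40 with pBABE. Every LKB1 array lay above every control, which held for 1 of the 64 genes and for 8.46% of all genes, and it rose by 0.43 ± 0.13 (SE, limma adjusted p = 0.0474). That call was close to the threshold. It was lost when any of 11 of the 17 arrays was left out (limma adjusted p between 0.0546 and 0.190): all 3 A549 LKB1 arrays, A549 pBABE replicates 1 and 2, A549 K78I replicate 2, all 3 H2122 LKB1 arrays and H2122 K78I replicates 2 and 3. In H2122 the RPS27L difference was 0.13 (95% interval −0.15 to 0.41).

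The largest A549 differences among the rest were those of RPL39L (0.22), RPL7A (0.16), RPL11 (0.15) and RPS3A (0.15) upward, and of RPL3L (−0.19), RPS24 (−0.16), RPS7 (−0.12), RPL36 (−0.09) and RPS21 (−0.07) downward. RPS7 was the 1 gene with every LKB1 array below every control in A549, at 9.88, 9.86 and 9.86 with LKB1, against 9.98, 10.01 and 9.96 with K78I and 10.03, 10.06 and 9.91 with pBABE (over all genes 6.65%). Its difference did not pass (limma adjusted p = 0.498). RPL7A was lowest on 1 control, with 10.81, 10.03 and 10.62 on the K78I arrays.

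The A549 array labelled K78I replicate 2 stood apart for the family as a whole. Averaged over the 64 genes the A549 LKB1 arrays lay at 0.02, 0.02 and 0.02 against the line mean, while the K78I arrays lay at 0.03, −0.12 and −0.03 and the pBABE arrays at −0.03, 0.05 and 0.04. On that K78I array 51 of the 64 genes lay below their line mean, and its cell cycle genes lay at −0.89; the part of either in the other was not tested. Without it and pBABE replicate 1, the median A549 difference was −0.003 and 34 of 64 genes were below 0 (55.5% of all genes). Without it and pBABE replicate 3, the pair at odds with their STK11 labels, the median was 0.004 and 29 were below 0 (53.3% of all genes).

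Against each control alone 0 of the 64 passed in A549 (limma), with medians of 0.06 against K78I and −0.0003 against pBABE, and at an unadjusted p under 0.05 1 gene was higher in each. Against K78I 14 of 64 were below 0 (all genes 51.5%), and over all genes 5.25% changed, 3.56% upward and 1.69% downward, with 10.8% higher and 8.87% lower at an unadjusted p under 0.05. Against pBABE 32 were below 0 (all genes 55.8%), and over all genes 5.5% changed, 3.78% upward and 1.72% downward, with 9.61% higher and 8.22% lower at an unadjusted p under 0.05. K78I minus pBABE had a median of −0.05 with 57 of 64 below 0 (all genes 54.6%) and 0 genes passing, and 0% passed over all genes. At an unadjusted p under 0.05, 0 of the 64 and 1.2% (higher) and 1.43% (lower) of all genes did. The arrays at odds with their STK11 labels lie on opposite sides of this contrast. Averaged over the 64 genes, K78I replicate 2 lay at −0.12 and pBABE replicate 3 at 0.04 against the line mean.

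The LKB1 difference itself was then compared between the lines, as the A549 difference minus the H2122 difference. It was above 0 for 62 of the 64 genes (below 0 for 2, against 47.9% of all genes), with a median of 0.24, against 0.01 over all genes; the exceptions were RPL41 and RPL3L (both −0.06). RPL13 was the 1 gene that passed, at 0.69 ± 0.18 (SE, limma adjusted p = 0.0488), against 1.63% of all genes in that direction, 1.98% in the opposite one and 3.6% in either. That call was lost on leaving out any of 16 of the 17 arrays (adjusted p between 0.0529 and 0.158), H2122 pBABE replicate 1 being the exception. At an unadjusted p under 0.05, 20 of the 64 were above 0 and 0 below, against 7.93% and 7.09% of all genes. RPS23 (0.44, adjusted p = 0.0988) and RPS4X (0.41, adjusted p = 0.071) did not pass.

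**Figure D3:**
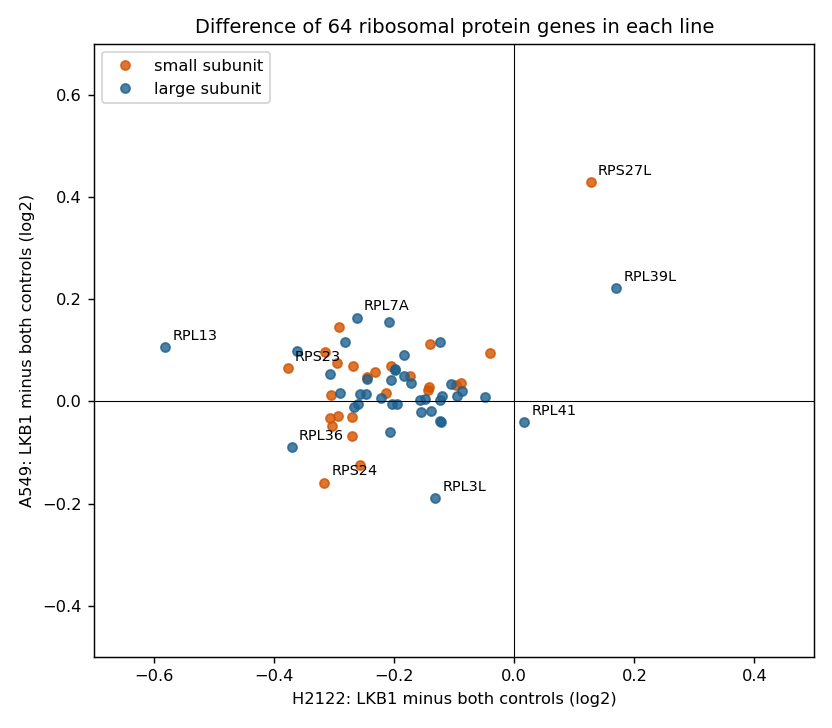
LKB1 minus both controls (log2) of the 64 ribosomal protein genes in A549 (vertical) against H2122 (horizontal), coloured by subunit. Most genes lie left of 0 on the H2122 axis and close to 0 on the A549 axis; the paralogues RPS27L and RPL39L lie to the upper right and RPL13 to the far left.

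The lines also differed in the level of single genes without active LKB1. Comparing the 6 A549 controls with the 5 H2122 controls, 7 of the 64 were higher in A549 and 17 lower, against 20.3% and 20.1% of all genes (40.3% in either direction), and the median difference was −0.04. The biggest differences were those of 2 paralogues. RPL39L, a paralogue of RPL39 known from testis and tumour cells, averaged 6.75 ± 0.36 in A549 controls (SD, n = 6) and 4.05 ± 0.28 in H2122 controls (SD, n = 5), a difference of 2.68 ± 0.18 (SE, limma adjusted p = 1.12e-08). RPS27L averaged 8.13 ± 0.22 in A549 controls and 6.04 ± 0.20 in H2122 controls, a difference of 2.06 ± 0.11 (SE, limma adjusted p = 5.42e-10).

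The core genes differed far less between the lines. The highest were RPS19 (0.27), mutated in Diamond-Blackfan anaemia, and RPL17 (0.27), and the lowest were RPL7A (−0.64), RPL29 (−0.59), RPS24 (−0.45) and RPS25 (−0.42), all of which passed (limma adjusted p at most 0.0322). RPL13 did not (0.19, adjusted p = 0.177). The muscle paralogue RPL3L and the testis paralogue RPL10L had mean levels of 4.69 and 4.10 over all arrays, and neither passed in any LKB1 comparison. Without the 3 H2122 arrays of conflicting label the number of genes that differed between the lines was 13 in place of 24.

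**Figure D4:**
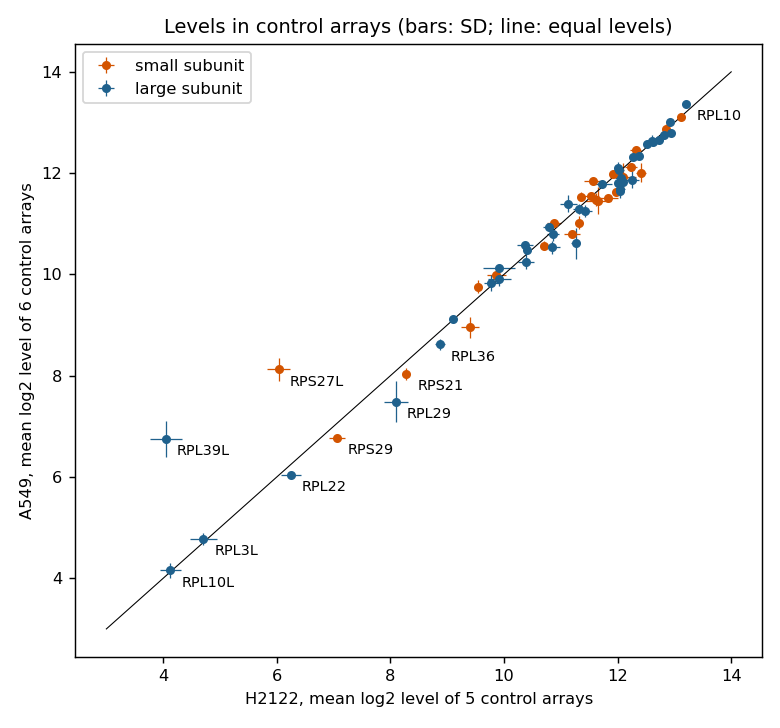
Mean log2 level of each of the 64 genes on the 6 A549 control arrays (vertical) against the 5 H2122 control arrays (horizontal); bars are SDs and the line marks equal levels. RPL39L (6.75 in A549 and 4.05 in H2122) and RPS27L (8.13 in A549 and 6.04 in H2122) lie well above the line, and the core genes lie near it.

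Gene lists around protein synthesis share these arrays with the family, so their values stand beside it as descriptions. Of 7 measured ribosomal protein genes whose names fall outside the pattern, 0 passed in A549 (median −0.05) and 1 fell in H2122 (median −0.20): FAU, which encodes RPS30 fused to a ubiquitin-like protein, at −0.41 ± 0.09 (SE, limma adjusted p = 0.0129). Of 22 translation factors and like genes with known TOP messages, 0 passed in A549 (median −0.01) and 2 fell in H2122 (median −0.20), FAU again and EIF4B (−0.34), which aids the helicase that unwinds messages. Whether these lists differ from the 64 genes was not tested.

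Of 45 initiation and elongation factors, 15 of which are also on the TOP list, 3 fell and 1 rose in A549 (median −0.07), and 4 fell in H2122 (median −0.21). EIF2B3, a subunit of the nucleotide exchange factor for eIF2, fell in both lines (−0.36 in A549 and −0.43 in H2122). EEF1A2, an elongation factor isoform of muscle and neurons, rose by 1.38 in A549 (limma adjusted p = 0.0135). EIF3J, which binds the small subunit, fell by 0.43 in H2122.

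Genes that build ribosomes lay mostly below 0 in both lines. Of 66 genes of ribosome biogenesis and RNA polymerase I, 9 fell and 0 rose in A549 (median −0.27, 59 below 0), and 5 fell and 0 rose in H2122 (median −0.27, 63 below 0). RIOK1 (−0.56) and NMD3 (−0.40), which act in the last steps of subunit maturation, fell in A549, as did RRP12 (−0.87). NOB1, the nuclease that trims 18S rRNA, fell by 0.60 in H2122, and the polymerase I subunits POLR1H (−0.50) and POLR1B (−0.46) fell there too. The median difference between lines of this list was −0.01, beside 0.24 for the 64 cytosolic genes.

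The 71 mitochondrial ribosomal protein genes, whose products form the separate ribosome of the mitochondrion, gave 7 that fell and 0 that rose in A549 (median −0.20, 68 below 0), and 10 that fell and 0 that rose in H2122 (median −0.28, 70 below 0). MRPS34 fell by 0.45 in A549 and by 0.68 in H2122, and MRPL58 by 0.36 in A549 and by 0.40 in H2122. Their median difference between lines was 0.06. Set side by side, the cytosolic and mitochondrial families had medians of 0.02 and −0.20 in A549, and of −0.21 and −0.28 in H2122.

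**Figure D5:**
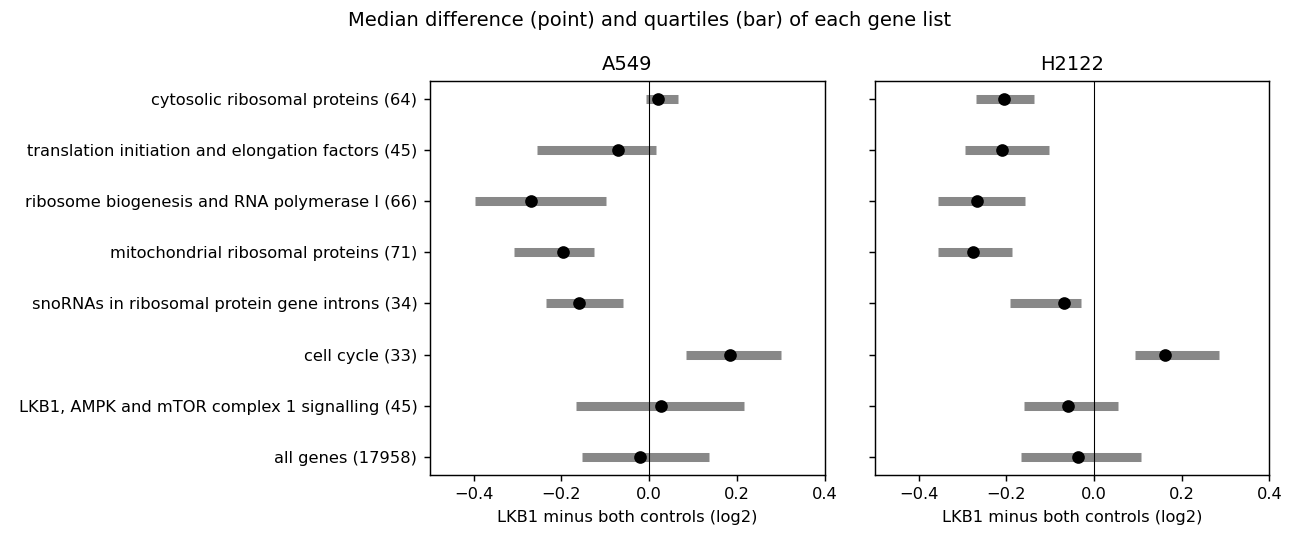
Median (point) and quartiles (bar) of LKB1 minus both controls (log2) for gene lists in A549 (left) and H2122 (right), with the number of measured genes in brackets. The cytosolic ribosomal protein genes lie at 0.02 in A549 (−0.047 with centred arrays) and −0.21 in H2122, while ribosome biogenesis and mitochondrial ribosomal protein genes lie between −0.28 and −0.20 in both lines.

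Small nucleolar RNAs hosted in introns of ribosomal protein genes guide the modification of rRNA and are cut from the same primary transcripts. Of 34 measured, 0 passed in A549 (limma, median −0.16, 30 below 0) and 0 in H2122 (median −0.07, 26 below 0). The host family had medians of 0.02 in A549 and −0.21 in H2122, and the difference was not tested as a set. Among 830 other genes with a TOP start in the promoter table, the median difference was 0.003 in A549 and −0.05 in H2122, and 3.37% fell in H2122. Among 12980 other genes in that table without a TOP start, the H2122 median was −0.04 and 2.27% fell. Of the 38 ribosomal protein genes with a TOP start 9 (23.7%) fell in H2122, beside 2.29% of all genes, and their median was −0.25. For some of the 16 matched genes without one, a run of C and T lies just beside the listed start. These 16, which include RPS4X, which fell, and the paralogues RPL10L and RPS27L, had a median of −0.19. In A549 both medians were 0.03.

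In the signalling list of 45 genes around LKB1, AMPK and mTOR complex 1, 2 rose and 0 fell in A549, namely RRAGD (1.30) and RRAGC (0.53), GTPases that bring mTOR complex 1 to the lysosome. In H2122 1 rose and 2 fell. SESN3, a stress-induced activator of AMPK, rose by 1.26. MLST8, a subunit of both mTOR complexes, fell by 0.62, and MYC, a transcription factor that drives ribosome synthesis genes, fell by 0.63 ± 0.09 (SE, limma adjusted p = 0.000632). Cell cycle genes had medians of 0.18 in A549 and 0.16 in H2122 and none of the 33 passed in either (limma). These medians include the controls with low cell cycle values given above. Against the line mean, the list lay at 0.14, −0.07 and 0.14 on the H2122 LKB1 arrays. It lay at 0.26, 0.27 and 0.31 with K78I and at 0.32 and −1.37 with pBABE. Every H2122 LKB1 array thus lay below every control except pBABE replicate 2. In A549 the list lay at 0.01, 0.26 and 0.14 with LKB1, among the controls. The ribosomal protein medians without those low arrays are given in this report, but the part of the cell cycle in them was not tested. Of the epithelial markers CDH1 fell in A549 and MUC1 in H2122. Of the 14 markers of other cells ACTA2 rose in A549 and PECAM1 fell in H2122. The mean level of those 14 lay between 4.31 and 4.34 on A549 LKB1 arrays and 4.17 and 4.35 on A549 controls, and between 4.18 and 4.35 on H2122 LKB1 arrays and 4.09 and 4.38 on H2122 controls.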

How the data were processed

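RNA (130 ng per sample) from 17 samples of cells grown in 5% serum was hybridised to Affymetrix gene arrays, 1 array per sample, per the labels' protocols. The deposited values are log2 levels per probe set, from RMA run by the authors; the submitters' processing notes name Affymetrix Expression Console 1.1. RMA makes the arrays' distributions alike, so a shift of all genes cannot be seen; array medians lay between 5.62 and 5.73. No detection calls were used, and the array's genome build: not given in the sources used here.

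Probe sets were named from the platform annotation: 19181 of 33297 had 1 symbol, 2055 had several and 12061 are unnamed here. The brightest probe set per gene gave 17958 genes. limma 3.58.1 (R 4.3.3, lmFit and eBayes, 6 groups, 11 residual and 3.8 prior degrees of freedom) tested the contrasts with Benjamini-Hochberg adjustment at 0.05. Groups follow the sample titles. The scripts were tested on simulated data. Promoter sequences came from RefSeq (GRCh38.p14).

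The members, gene lists and doubted arrays were chosen with earlier results of these data known. The named genes were STK11, RPL13, RPS23, stalk genes, paralogues, genes that passed, the 5 highest and lowest per line, the extremes between the lines and up to 3 per list. The alternatives were 32: other scalings, filters, priors and weights, a replicate block, label and array exclusions; a test of every probe set, and the counts below 0 without doubted arrays, were chosen after seeing the data. Replicate numbers did not deviate together in every pair, so they were not used as a block in the main tests. Pairs of replicates had differences with an SD of 0.226 to 0.607 over all genes, and all were counted separately.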

Additional observations from a re-analysis of the deposited data

Results flagged for a closer look

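RPL13 differed between the lines in its response to LKB1, by the test of that difference: the A549 difference minus the H2122 difference was 0.69 ± 0.18 on the log2 scale (SE, limma adjusted p = 0.0488). That call was close to the threshold and was lost on leaving out any of 16 of the 17 arrays (limma adjusted p between 0.0529 and 0.158). The LKB1 differences of RPL13 were 0.11 in A549 and −0.58 in H2122. The dimmest of its 3 probe sets differed by −0.24 in A549 and −0.06 in H2122, unlike the other two.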

How the results depend on the processing

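The medians of the 64 genes held their direction in H2122 and between lines under the alternatives run; those in A549 lay near 0 and turned sign under some, also to −0.0033 when the 3 controls of low cell cycle level were left out. With each array centred on its median, the A549 median was −0.047 against both controls, −0.016 against K78I and −0.062 against pBABE, and the H2122 median against pBABE was −0.30; the count was 0 in A549, and in H2122 it was 1 against K78I and 5 against pBABE. With the H2122 arrays grouped by source name the medians were −0.066 against both controls, −0.018 against K78I, −0.13 against pBABE, −0.10 for K78I minus pBABE and 0.086 for the difference between lines, and the counts were 0 in A549, in H2122, against pBABE and between lines. Without the 3 arrays of conflicting label these 4 counts were also 0, and the count between the lines' controls was 13. Leaving out the 3 controls with low cell cycle genes gave 0 in A549, 0 between lines (median 0.19), 6 against K78I and 0 against pBABE (median −0.18) in H2122. Leaving out the A549 controls at odds with STK11 gave 0 between lines, 1 for A549 LKB1 against pBABE and 1 for H2122 LKB1 against K78I.

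The number of genes that passed moved with the model of the spread. A trended, robust prior gave 16 in H2122, 0 in A549, 5 between lines, 4 against K78I and 5 against pBABE in H2122. In the same order, 7.16%, 8.34%, 3.52%, 3.8% and 5.69% of all genes changed under this prior. Array weights gave 5 between lines, beside 9.5% of all genes, and 1 for A549 LKB1 against pBABE, beside 21.3% of all genes. They gave 27 for H2122 LKB1 against K78I, where 0 passed without weights. Over all genes 20.7% then changed in that comparison and 10.1% fell, beside 3.89% and 0.908% without weights. Each line fitted alone gave 0 in A549, 2 in H2122 and 0 in H2122 against pBABE. Pooled controls gave 0 in A549. Quantile normalization gave 3 against K78I and 2 against pBABE in H2122, leaving out the dimmest 30% of genes 1 and 2. Averaging the probe sets of each gene gave 2 for H2122 LKB1 against K78I and 0 between lines, and a test of every probe set, chosen after seeing the data, gave 0 between lines among the 64 brightest probe sets and 2 among all 119, dimmer ones of RPS9 and RPL22. The causes were not tested.

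With a replicate block within each line, H2122 gave 3 genes, the difference between lines 0, A549 against K78I 1 and H2122 against K78I 1. In A549 the pairing is not borne out. There same-numbered arrays correlated over 0.1 in 4 of 9 pairs (−0.64 to 0.35), and 3 of 9 arrays correlated best with their own number. In H2122 same-numbered arrays correlated over 0.1 in 6 of 7 pairs (0.06 to 0.42), and 6 of 8 arrays correlated best with their own number. For H2122 pairing may thus hold, which is a hint from the data and not the design. 

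Leaving out 1 array at a time gave 0 to 1 genes in A549, 1 to 12 in H2122, 0 to 2 between lines, 0 to 1 for A549 LKB1 against K78I, 0 to 4 for H2122 LKB1 against K78I (4 without A549 K78I replicate 2), 0 to 5 against pBABE (median −0.28 to −0.18), and 0 to 1 for H2122 K78I minus pBABE.

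Some single genes turned sign. RPS23 in A549 was −0.0036 and RPL41 in H2122 −0.020 with centred arrays; RPL13 in A549 was −0.016 with the mean of its probe sets; RPL41 was −0.034 with array weights. By source name, RPL10 was 0.018, RPLP1 0.13 and STK11 −0.45 (2.49 by title) in H2122, and RPLP1 was 0.0078 without the arrays of conflicting label. Leaving out 1 array, RPS24 in A549 ranged from −0.26 to 0.031, RPS26 in H2122 from −0.17 to 0.089 and RPL41 in H2122 from −0.0098 to 0.047. Of the other values of single genes under the alternatives, 998 kept direction and side of the threshold, 179 no longer passed and 13 newly passed. Groups of 2 or 3 arrays limit the precision, and no value here has a measured background.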
